A study of Mus musculus with 6 samples.

Results

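The 8 genes described here are *Tnfrsf10b*, *Fas*, *Tnfrsf1a*, *Fadd*, *Ripk1*, *Casp8*, *Casp9* and *Cflar*. These genes encode death receptors, proteins that gather at them and the first caspases of the receptor and mitochondrial routes to cell death. They were chosen by symbol, each symbol was matched to an Ensembl identifier through the GENCODE M21 annotation, and all 8 were among the 14548 genes listed in every library. The study sequenced mRNA from C2C12, an established line of mouse myoblasts (muscle precursor cells that fuse into fibres when serum is withdrawn), to ask what changes when myostatin, a secreted inhibitor of muscle growth, is lost. There were 3 libraries of wild-type (WT) cells and 3 of cells without functional *Mstn* (MSTN-KO), and no compound or time point separated the groups. The knockout was made by electroporation of a plasmid carrying Cas9 and a guide against *Mstn*, the knockout cells are given as 1 line, C11, and the labels write C11 as the strain of the WT cells too. Differences between the groups therefore cannot be told apart from differences between 1 edited line and its parent cells. *Mstn* itself lay between 0 and 0.0586 FPKM in all 6 libraries, too low to check the labels.

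Death receptors are members of the tumour necrosis factor (TNF) receptor family with a cytoplasmic death domain. When a ligand such as TRAIL or Fas ligand binds, the receptor gathers the adaptor FADD and procaspase-8, and caspase-8 then cuts effector caspases or passes the signal to mitochondria, where cytochrome c and APAF1 activate caspase-9. TNF bound to TNFR1 first builds a complex on the kinase RIPK1 that favours survival, and where caspase-8 is blocked, RIPK1 and RIPK3 can instead drive necroptosis, a lytic form of death; cFLIP, the product of *Cflar*, competes with procaspase-8 for FADD. Myoblasts use some of these caspases without dying, since caspase activity is known to take part in muscle differentiation.

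Levels are in FPKM, the fragments of a gene scaled by its length and by the mapped fragments of the library, so that levels of different genes can be compared per length. Differences are log2 fold changes of FPKM + 1, MSTN-KO against WT, from limma, fitted over the 10837 genes that reached 1 FPKM in at least 1 library. A gene is called where its Benjamini-Hochberg adjusted p, over all those genes, is under 0.05. The added 1 makes changes of low genes smaller than their change in FPKM. All 8 genes were tested. *Fas* reached 1 FPKM in 4 of the 6 libraries, and the other 7 genes in all 6.

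Of the 8 genes, 2 fell in MSTN-KO cells, *Tnfrsf10b* and *Cflar*, and 0 rose by limma. Over all tested genes 8.96% were called lower and 8.78% higher, 971 and 952 genes. With every library scaled to the same FPKM sum, which moved the median of all genes to -0.26, these became 2367 lower and 350 higher, and *Casp8* was called lower beside *Tnfrsf10b* and *Cflar*. At an unadjusted limma p under 0.05, 2 of the 8 genes were lower and 1, *Tnfrsf1a*, was higher. The share of all tested genes at that threshold was not counted, so these counts have no baseline. The WT and MSTN-KO values did not overlap for 4 genes, 3 with all MSTN-KO libraries below (*Tnfrsf10b*, *Ripk1* and *Cflar*) and 1 with all of them above (*Tnfrsf1a*). Over all tested genes 18.1% lay apart in the lower and 19.3% in the higher direction. The log2 fold change was below 0 for 6 of the 8 genes, and the median over the 8 was -0.24, where the median of all tested genes was -0.00. The criteria for differentially expressed genes in the study were an unadjusted p under 0.05 with a log2 fold change above 1 or below -1. In limma none of the 8 met them, and 380 of all tested genes, 3.51%, did. The study applied them in the iDEP software and reported more genes than this, so its own calls can differ.

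**Figure D1:**
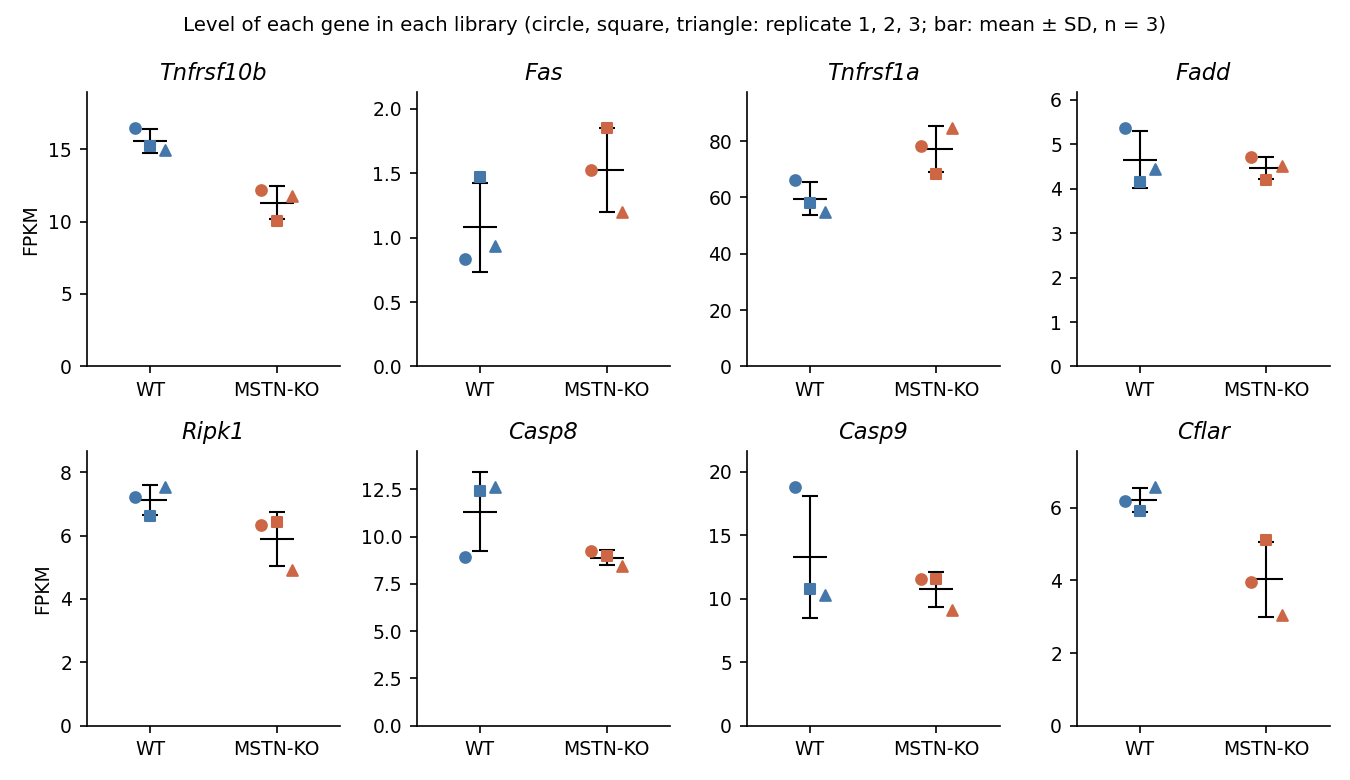
Level in FPKM (vertical axes from 0, a scale for each gene) of the 8 genes in the WT and MSTN-KO libraries, with points for libraries and bars for the mean ± SD (n = 3). All 3 MSTN-KO points lie below all WT points for *Tnfrsf10b*, *Ripk1* and *Cflar* and above them for *Tnfrsf1a*, and the WT point of *Casp9* at 18.8 FPKM stands apart from the other 5.

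The receptors differed widely in level. *Tnfrsf1a*, encoding TNFR1, had the highest mean over the 6 libraries of the 8 genes, 68.4 FPKM, and its lowest library lay above the highest library of any of the others. Next came *Tnfrsf10b* (13.4 FPKM), *Casp9* (12.01) and *Casp8* (10.1), whose ranges overlapped and whose order held in 4 of 6 libraries at each step. *Casp8* was above *Ripk1* (6.51 FPKM) in all 6 libraries without overlap. *Ripk1* was above *Cflar* (5.13 FPKM) within every library, although their ranges overlapped, and *Cflar* and *Fadd* (4.56 FPKM) overlapped, with *Cflar* higher in 4 of 6. *Fas*, at 1.30 FPKM, was below *Fadd* in every library without overlap.

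*Tnfrsf10b* encodes the TRAIL receptor DR5, the death-inducing TRAIL receptor of the mouse, and lies on GRCm38 chromosome 14 (chr14:69767472-69784411, plus strand). Its level was 16.5, 15.2 and 14.9 FPKM in WT replicates 1 to 3 and 12.2, 10.02 and 11.8 FPKM in MSTN-KO replicates 1 to 3. The groups did not overlap, with MSTN-KO lower. The mean fell from 15.5 ± 0.824 to 11.3 ± 1.14 FPKM (SD, n = 3), a change of -27.1% and a log2 fold change of -0.43 (SE 0.14, 95% interval -0.72 to -0.13, limma adjusted p = 0.0454). The call was close to the threshold: it was lost when any 1 of the 6 libraries was left out, with limma adjusted p between 0.0609 and 0.139 and log2 fold changes between -0.48 and -0.35. The study lists this gene as upregulated in MSTN-KO cells compared with a rhabdomyosarcoma group from another dataset, a comparison not made here.

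*Tnfrsf1a* (chr6:125349362-125362484, plus strand) showed the opposite direction. It stood at 66.1, 57.9 and 54.9 FPKM in WT and at 78.3, 68.4 and 84.8 FPKM in MSTN-KO libraries. All MSTN-KO values were above all WT values, by the narrow gap between 66.1 and 68.4. The means were 59.6 ± 5.79 and 77.2 ± 8.25 FPKM (SD, n = 3), with a log2 fold change of 0.37 (SE 0.13, 95% interval 0.08 to 0.65) that did not pass (limma adjusted p = 0.0706). Without MSTN-KO replicate 2, the lowest of its group, it passed (log2 fold change 0.45, limma adjusted p = 0.0360). With each library scaled to the same FPKM sum the log2 fold change was 0.08.

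*Fas* (chr19:34290666-34327772, plus strand), the receptor of Fas ligand, was near the lower limit of what was tested. WT libraries held 0.833, 1.47 and 0.935 FPKM and MSTN-KO libraries 1.52, 1.85 and 1.20 FPKM. The groups overlapped, because WT replicate 2 was above MSTN-KO replicate 3. The means of 1.08 ± 0.343 and 1.53 ± 0.325 FPKM (SD, n = 3) gave a log2 fold change of 0.29 (SE 0.18, 95% interval -0.11 to 0.68, limma adjusted p = 0.299).

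*Fadd* (chr7:144577318-144582463, minus strand), the adaptor that links death domains to procaspase-8, was at 5.37, 4.15 and 4.45 FPKM in WT and 4.71, 4.2 and 4.50 FPKM in MSTN-KO libraries. The MSTN-KO values lay inside the WT range. The log2 fold change was -0.04 (SE 0.15, limma adjusted p = 0.865), and its 95% interval, -0.37 to 0.28, includes changes in either direction.

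*Ripk1* (chr13:34002363-34037147, plus strand), the kinase of the TNFR1 complex, was at 7.23, 6.61 and 7.54 FPKM in WT and 6.34, 6.42 and 4.92 FPKM in MSTN-KO libraries. All MSTN-KO values were below all WT values, with MSTN-KO replicate 3 the lowest. The means were 7.12 ± 0.473 and 5.89 ± 0.844 FPKM (SD, n = 3), and the log2 fold change of -0.24 (SE 0.15, 95% interval -0.57 to 0.08) did not pass (limma adjusted p = 0.284).

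*Casp8* (chr1:58795374-58847503, plus strand) encodes the initiator caspase that death receptors recruit. WT libraries held 8.91, 12.4 and 12.6 FPKM and MSTN-KO libraries 9.24, 9.0 and 8.44 FPKM. WT replicate 1 lay among the MSTN-KO values and the other WT libraries above them. The log2 fold change was -0.30 (SE 0.16, 95% interval -0.64 to 0.03, limma adjusted p = 0.195), from means of 11.3 ± 2.09 and 8.89 ± 0.407 FPKM (SD, n = 3). With each library scaled to the same FPKM sum it was -0.57 and passed (limma adjusted p = 0.0402).

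*Casp9* (chr4:141793612-141815976, plus strand) encodes the initiator caspase of the mitochondrial route. It stood at 18.8, 10.7 and 10.3 FPKM in WT and 11.5, 11.5 and 9.13 FPKM in MSTN-KO libraries. WT replicate 1 was above all others, and the remaining 5 libraries of both groups lay between 9.13 and 11.5 FPKM. The log2 fold change was -0.24 (SE 0.20, 95% interval -0.68 to 0.19, limma adjusted p = 0.431), and without WT replicate 1 it was 0.02.

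*Cflar* (chr1:58711508-58758884, plus strand) encodes cFLIP, the caspase-like inhibitor of caspase-8 activation. Its level was 6.18, 5.90 and 6.57 FPKM in WT and 3.95, 5.11 and 3.05 FPKM in MSTN-KO libraries. The groups did not overlap, with MSTN-KO lower and more spread, replicate 3 lowest and replicate 2 highest. The mean fell from 6.22 ± 0.338 to 4.04 ± 1.03 FPKM (SD, n = 3), by 35.1%, with a log2 fold change of -0.54 (SE 0.17, 95% interval -0.91 to -0.17, limma adjusted p = 0.0453). In this fit it was the largest change of the 8 genes, but not under every other processing. *Tnfrsf10b* changed more after correction for transcript length and GC content (-0.44 against -0.39) and without MSTN-KO replicate 3 (-0.46 against -0.39). With quantile normalization *Fas* was at 0.44 and *Cflar* at -0.43. With centring by chromosome *Tnfrsf1a* was at 0.31 and *Cflar* at -0.29. The call of *Cflar* held when MSTN-KO replicate 2 was left out (log2 fold change -0.69, limma adjusted p = 0.0125). It was lost when any other library was, with limma adjusted p between 0.0960 and 0.126.

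The annotated transcripts of *Cflar* and *Ripk1* are long, 6572 and 6472 bases for the longest of each, and MSTN-KO replicate 3 was lower than the other MSTN-KO libraries over long transcripts in general. The median difference of that library from the mean of the other 2 was -0.26 on the log2 scale over the 1519 tested genes with a transcript of at least 6 kb, and 0.04 over all 10784 tested genes with a known length. After each library was corrected for transcript length and GC content, *Cflar* changed by -0.39 and was still called (limma adjusted p = 0.0411), and *Ripk1* by -0.11. Without MSTN-KO replicate 3 *Cflar* was also at -0.39, uncalled (limma adjusted p = 0.126).

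**Figure D2:**
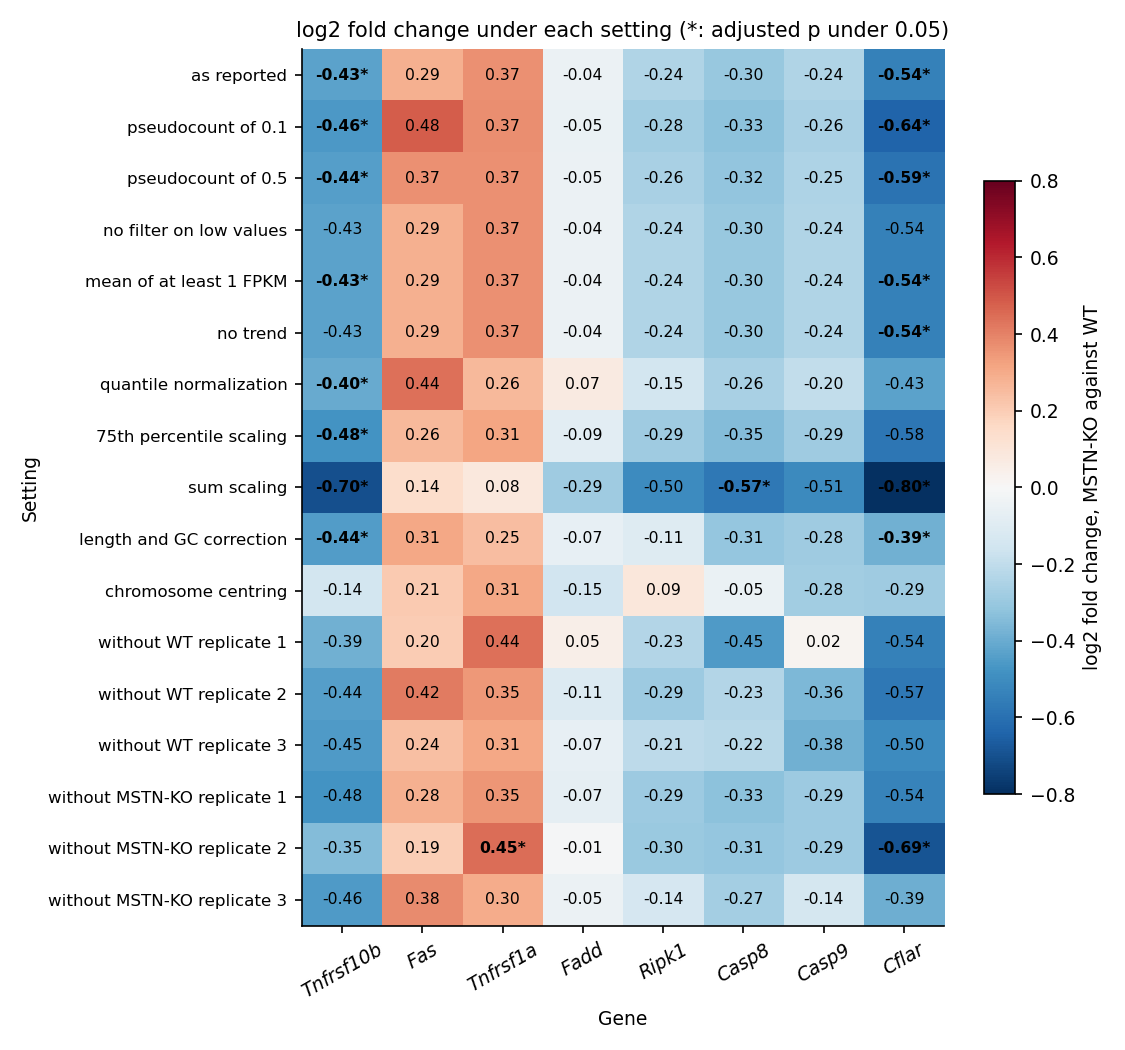
log2 fold change (MSTN-KO against WT, of FPKM + 1 or as each setting defines it) of the 8 genes, in columns, under the settings named in rows, red above and blue below 0, with a star where the limma adjusted p was under 0.05. *Tnfrsf10b* and *Cflar* stay below 0 in every row and lose the star in several, including when each library is centred on the median of each chromosome.

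*Cflar* and *Casp8* are neighbours on chromosome 1. The end of *Cflar* lies 36.5 kb before the start of *Casp8*, on the same strand, and no other tested gene lies between them. The FPKM of *Cflar* divided by that of *Casp8*, a ratio of the inhibitor to the caspase it competes with, was 0.693, 0.475 and 0.520 in WT and 0.427, 0.568 and 0.361 in MSTN-KO libraries. The groups overlapped: MSTN-KO replicate 2 was above WT replicates 2 and 3. The mean log2 ratio was -0.85 ± 0.28 in WT and -1.17 ± 0.33 in MSTN-KO cells (SD, n = 3), a difference of -0.32, which shrank to -0.08 after the length and GC correction. It was -0.16 without WT replicate 1, -0.17 without MSTN-KO replicate 3 and -0.50 without MSTN-KO replicate 2. No test was run on it.

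Chromosome of origin moved with the values of several of these genes. On chromosomes 1, 13 and 14 the median log2 fold change of the tested genes was -0.25 (627 genes), -0.34 (410 genes) and -0.29 (367 genes), where the medians of the other chromosomes lay between -0.11 and 0.15. Of the 8 genes 4 lie on these chromosomes: *Casp8* and *Cflar* on 1, *Ripk1* on 13 and *Tnfrsf10b* on 14. Limma called 17.5%, 29.3% and 24.3% of the tested genes of these chromosomes lower. Chromosome 16, which holds none of the 8 genes, had 25.3% called lower with a median of -0.08, and the remaining chromosomes had between 3.81% and 9.97%.

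Measured against its own chromosome, *Cflar* stayed -0.29 below the median and *Tnfrsf10b* -0.14 below, with 18.3% and 33% of the genes of their chromosomes lower still. *Casp8* was -0.05 from the median of chromosome 1, and *Ripk1* lay 0.10 above that of chromosome 13. With every library centred on the median of each chromosome neither *Tnfrsf10b* (-0.14, limma adjusted p = 0.487) nor *Cflar* (-0.29, limma adjusted p = 0.254) was called, and *Ripk1* turned to 0.09. On the other chromosomes *Tnfrsf1a* was 0.31 above its median, *Fas* 0.23 above, *Fadd* -0.15 and *Casp9* -0.25 from theirs. The part of these shifts of whole chromosomes in the values of the 8 genes was not tested.

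**Figure D3:**
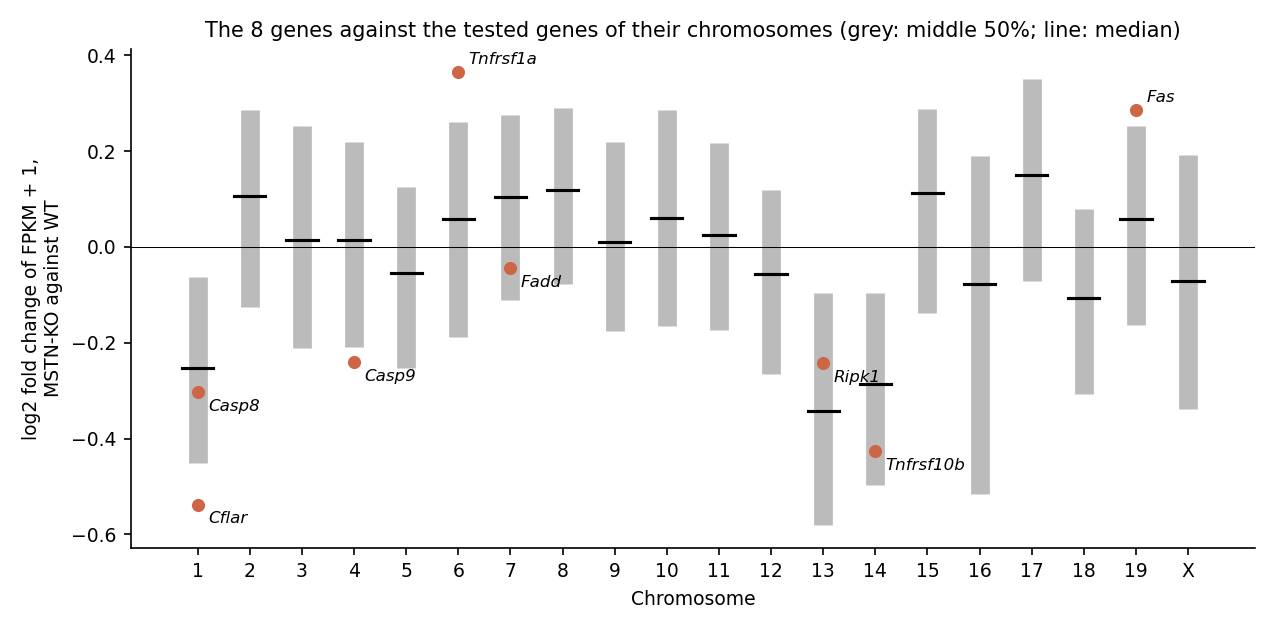
log2 fold change of FPKM + 1, MSTN-KO against WT (vertical axis), by chromosome, with a grey bar for the middle 50% of the tested genes, a black line for their median and a point for each of the 8 genes. The bars of chromosomes 1, 13 and 14 lie wholly below 0, *Ripk1*, *Casp8* and *Tnfrsf10b* lie within the bars of theirs, and *Cflar* lies below its bar.

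Promoters are shown for *Cflar*, the largest change among the 8 genes in the fit reported, and for *Ripk3*, the largest among the wider pathway described next. They are the 250 bases before the start annotated in RefSeq (GRCm38.p6), with each CG dinucleotide in capitals. CG dinucleotides are the sites where DNA methylation acts, which was not measured in these samples.

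Cflar, chr1:58711241-58711490, plus strand: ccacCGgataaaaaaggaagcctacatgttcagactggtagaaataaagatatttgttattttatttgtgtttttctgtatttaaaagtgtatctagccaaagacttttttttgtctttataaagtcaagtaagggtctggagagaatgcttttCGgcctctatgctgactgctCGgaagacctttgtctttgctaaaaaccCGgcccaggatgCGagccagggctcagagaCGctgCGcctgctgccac

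Ripk3, chr14:55788858-55789107, minus strand: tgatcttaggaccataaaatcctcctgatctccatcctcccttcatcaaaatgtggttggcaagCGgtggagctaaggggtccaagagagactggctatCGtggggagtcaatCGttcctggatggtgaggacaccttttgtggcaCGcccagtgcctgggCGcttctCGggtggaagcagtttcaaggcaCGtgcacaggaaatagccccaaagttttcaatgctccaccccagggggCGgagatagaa

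The *Cflar* promoter holds 7 CG and that of *Ripk3* 8, where the median over 32851 promoters of this length is 6, and 46.3% and 43% of promoters hold at least as many. RefSeq promoters were found for 7 of the 8 genes, and *Tnfrsf10b* was not matched. RefSeq starts can differ from the GENCODE starts in the gene positions given above. The windows of *Casp8* (chr1:58802252-58802501) and *Tnfrsf1a* (chr6:125349473-125349722) and the second of *Ripk1* (chr13:34002624-34002873) lie inside those gene positions. Their counts are thus not for the GENCODE start. *Casp8* holds 5, *Tnfrsf1a* 9, *Fas* 11, *Fadd* 19 and *Casp9* 25 CG, and the 2 promoters of *Ripk1* hold 19 and 32. The GC box GGGCGG, searched on both strands, occurs in 32.7% of all promoters, and in *Fas* (1), *Fadd* (2), *Casp9* (4), *Ripk3* (1) and both promoters of *Ripk1* (2 and 4), but not in the windows of *Cflar*, *Casp8* or *Tnfrsf1a*. The NF-kB consensus, present in 3.9% of promoters, was in none of these windows.

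The wider pathway was read from 7 lists of 65 genes, of which 61 were in the files and 52 were tested. Of the 52, 8 rose, 3 fell and 41 were not called, where 8.78% of all tested genes were called higher and 8.96% lower, and the median log2 fold change was 0.07. The called counts of the single lists that follow are to be read against the same shares. At an unadjusted limma p under 0.05 the pathway counts were 9 higher and 8 lower. For that threshold no share of all tested genes was counted, here or for the single lists. With every library scaled to the same FPKM sum 3 pathway genes were called higher and 10 lower, where 350 and 2367 of all tested genes were. Without MSTN-KO replicate 3 the 8 higher calls became 3, without WT replicate 2 they became 4 and without MSTN-KO replicate 1 or WT replicate 3 they became 5. Without MSTN-KO replicate 2 the 3 lower calls became 5. The calls over all tested genes moved too. The 952 higher calls became 583 without MSTN-KO replicate 3, 423 without WT replicate 2, 511 without MSTN-KO replicate 1 and 603 without WT replicate 3. The 971 lower calls became 1251 without MSTN-KO replicate 2. Values of *Tnfsf10*, the TRAIL ligand, and of *Edar*, *Birc3* and *Faf1* were not analysed here.

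Among the death ligands *Tnf*, *Lta*, *Fasl* and *Tnfsf15* stayed under 1 FPKM in every library, the highest value being 0.549 FPKM for *Lta*, so that none was tested. *Tnfsf12*, encoding TWEAK, a TNF family cytokine that acts on muscle, was the exception. It was at 15.3, 14.1 and 13.1 FPKM in WT and 6.83, 6.42 and 5.61 FPKM in MSTN-KO libraries, far apart without overlap, and fell by 1.06 on the log2 scale (SE 0.14, limma adjusted p = 0.000250). Its receptor Fn14, the product of *Tnfrsf12a*, had the highest level of all the pathway genes, with a mean of 825.5 FPKM in WT and 736.6 FPKM in MSTN-KO cells and overlapping groups (log2 fold change -0.16, limma adjusted p = 0.444). Its value depended on the scaling: it was called lower with quantile normalization (-0.39, limma adjusted p = 0.0251), with a common FPKM sum (-0.45, limma adjusted p = 0.0105) and with the length and GC correction (-0.34, limma adjusted p = 0.0423).

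Of the 8 other TNF receptors tested, 2 rose and 1 fell. *Tnfrsf1b*, encoding TNFR2, the TNF receptor without a death domain, rose from 6.28 ± 0.598 to 9.23 ± 0.777 FPKM (SD, n = 3, log2 fold change 0.49, limma adjusted p = 0.0312). *Ngfr*, the p75 neurotrophin receptor, was at 1.27, 1.08 and 2.38 FPKM in WT and 2.68, 5.08 and 4.81 FPKM in MSTN-KO libraries, and rose by 1.01 on the log2 scale (limma adjusted p = 0.00962). *Eda2r*, the receptor of ectodysplasin A2, known in muscle for its part in wasting, fell from 4.69 ± 0.658 to 2.31 ± 0.491 FPKM (SD, n = 3, log2 fold change -0.79, limma adjusted p = 0.00715). The call of *Tnfrsf1b* was lost without WT replicate 2 or 3 and without MSTN-KO replicate 1 or 3 (log2 fold change 0.43 to 0.52, limma adjusted p 0.0742 to 0.148), and that of *Ngfr* without WT replicate 1 (0.93, limma adjusted p = 0.0539) or MSTN-KO replicate 3 (0.91, limma adjusted p = 0.0551). Both receptors of TNF, *Tnfrsf1a* and *Tnfrsf1b*, had all MSTN-KO libraries above WT, as did 19.3% of all tested genes. With every library scaled to the same FPKM sum they were at 0.08 and 0.24 (limma adjusted p = 0.556 and 0.205). Whether their changes differ was not tested.

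Among the 22 tested adaptors and ubiquitin regulators, the proteins that decide what an occupied receptor does, 4 rose, 0 fell in limma and 18 were not called (unadjusted p under 0.05: 5 higher and 2 lower), with a median log2 fold change of 0.12, where 8.78% of all tested genes were called higher and 8.96% lower. *Traf1*, an adaptor of TNFR2, was at 2.37, 2.72 and 3.11 FPKM in WT and 5.46, 6.20 and 8.30 FPKM in MSTN-KO libraries and rose by 1.02 on the log2 scale (limma adjusted p = 0.00155). *Traf5*, a ubiquitin ligase of the same family, rose from 6.63 ± 1.41 to 14.7 ± 5.51 FPKM (SD, n = 3, log2 fold change 0.98, limma adjusted p = 0.0147), with MSTN-KO replicate 2 at 8.41 well below the other MSTN-KO libraries at 18.8 and 16.7. *Rbck1*, encoding HOIL-1 of the linear ubiquitin ligase, rose from 43.4 ± 7.04 to 64.0 ± 7.35 FPKM (SD, n = 3, log2 fold change 0.55, limma adjusted p = 0.0190). The call of *Traf5* was lost without MSTN-KO replicate 3 (0.86, limma adjusted p = 0.0843). That of *Rbck1* was lost without WT replicate 2 or 3 and without MSTN-KO replicate 1 or 3 (0.46 to 0.53, limma adjusted p 0.0685 to 0.0799). *Traf1* was called whichever library was left out.

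*Tradd*, the death domain adaptor that binds TNFR1 itself, rose from 24.0 ± 1.91 to 33.0 ± 4.48 FPKM (SD, n = 3, log2 fold change 0.43, limma adjusted p = 0.0432). Its call was also close to the threshold and was lost without WT replicate 2 or 3 and without MSTN-KO replicate 1 or 3 (log2 fold change 0.33 to 0.50, limma adjusted p 0.0676 to 0.175). With every library scaled to the same FPKM sum *Traf5*, *Rbck1* and *Tradd* were uncalled (0.16 to 0.73, limma adjusted p 0.0604 to 0.290). *Traf1* was still called with that scaling (0.82, limma adjusted p = 0.00919). Chromosome centring left *Tradd* (limma adjusted p = 0.123) and *Rbck1* (limma adjusted p = 0.0518) uncalled. *Pea15a*, a death effector domain protein that binds FADD, had the highest level of the list, 83.6 ± 4.17 FPKM in WT and 66.5 ± 5.66 FPKM in MSTN-KO cells (SD, n = 3, log2 fold change -0.33, limma adjusted p = 0.0793). *Pea15a* was called lower with quantile normalization (-0.44), 75th percentile scaling (-0.38), a common FPKM sum (-0.61) and the length and GC correction (-0.40), with limma adjusted p between 0.0025 and 0.0247, and stood at -0.08 with chromosome centring (limma adjusted p = 0.707).

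Of the other caspases 1 of the 6 tested rose. *Casp4*, the mouse caspase-11 of the inflammatory response to lipopolysaccharide, was at 0.391, 0.345 and 0.593 FPKM in WT and 2.42, 1.64 and 1.06 FPKM in MSTN-KO libraries, and rose by 0.88 on the log2 scale (limma adjusted p = 0.00986). It had been tested only because the MSTN-KO libraries reached 1 FPKM.

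In the apoptosome and mitochondrial arm 1 of 7 genes rose: *Htra2*, a mitochondrial protease that antagonises inhibitors of apoptosis once released, went from 58.1 ± 4.39 to 82.9 ± 10.8 FPKM (SD, n = 3, log2 fold change 0.50, limma adjusted p = 0.0197). That call was lost without WT replicate 2 (0.44, limma adjusted p = 0.112) or MSTN-KO replicate 3 (0.40, limma adjusted p = 0.0641). With every library scaled to the same FPKM sum it was lost too (0.22, limma adjusted p = 0.107). *Cycs*, encoding cytochrome c, had means of 363.2 ± 92.6 and 399.7 ± 52.1 FPKM (SD, n = 3, log2 fold change 0.16, limma adjusted p = 0.562). Of 6 caspase substrates limma called 0 in either direction (unadjusted p under 0.05: 0 higher and 2 lower), the median log2 fold change was -0.22, and the highest, *Acin1*, was at 45.2 ± 2.69 and 48.6 ± 3.84 FPKM (SD, n = 3, log2 fold change 0.10, limma adjusted p = 0.610).

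**Figure D4:**
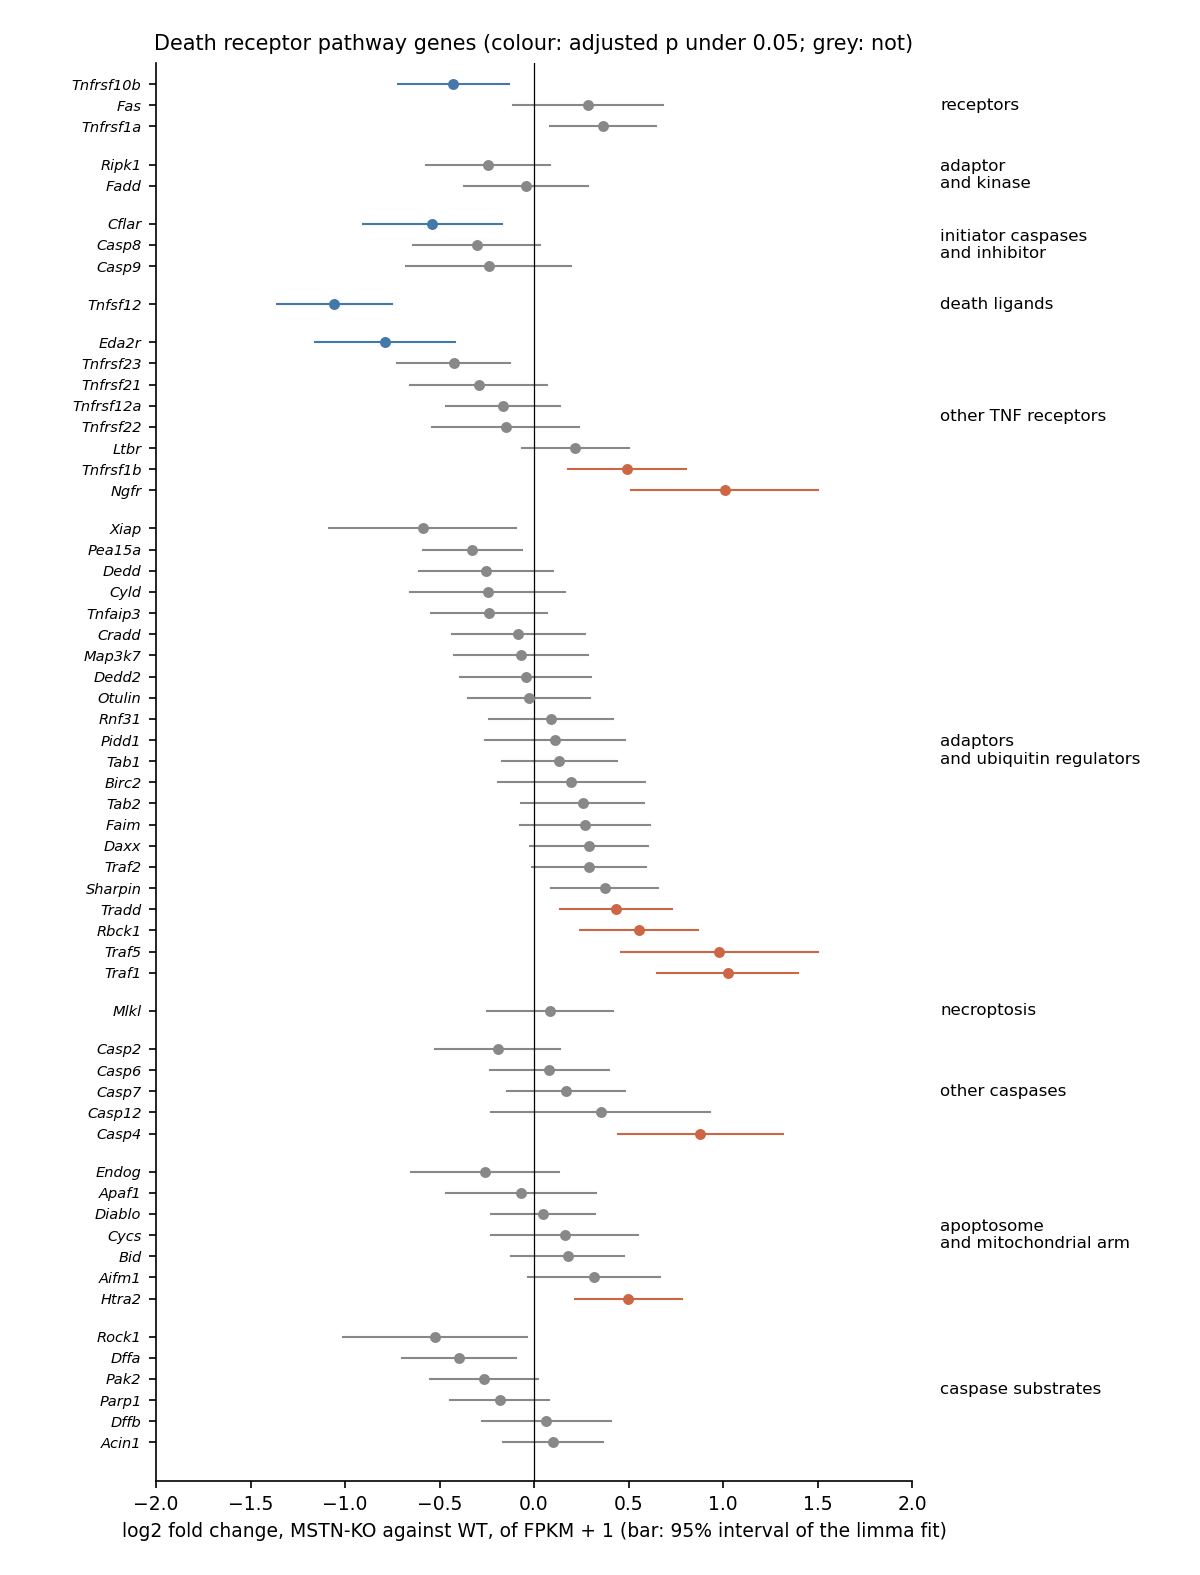
log2 fold change of FPKM + 1, MSTN-KO against WT (horizontal axis), of the 8 genes and of tested genes of the pathway lists, with bars for the 95% interval of the limma fit, orange for called higher, blue for called lower and grey for not called. *Ripk3*, listed at 0 in all MSTN-KO libraries, is left out because its fold cannot be given, and the largest changes drawn are *Tnfsf12* at -1.06 and *Traf1* at 1.02.

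The necroptosis kinase stood apart from the rest of the pathway. *Ripk3* (chr14:55784995-55788865, minus strand) was at 12.3, 11.8 and 11.8 FPKM in the WT libraries and was listed at 0 in all 3 MSTN-KO libraries (limma adjusted p = 4.54e-09), so that no fold is given. *Ripk3*, 1 of the 3 pathway genes called lower, was tested only because the WT libraries reached 1 FPKM. A 0 in an FPKM table can stand for no fragment or for an estimate that was not made, and these cannot be told apart here. *Mlkl*, the pore-forming protein that RIPK3 phosphorylates, was at 9.91, 10.2 and 14.3 FPKM in WT and 11.99, 12.1 and 12.1 FPKM in MSTN-KO libraries, inside the WT range (log2 fold change 0.09, limma adjusted p = 0.731). *Zbp1*, a sensor that can engage RIPK3, was not tested, at means of 0.0956 and 0.109 FPKM.

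In all, 9 genes were listed at 0 in every MSTN-KO library while reaching 1 FPKM in every WT library, and *Ripk3* had the highest WT median among them, 11.8 FPKM. There were 0 genes of the opposite kind, a count of listed values with no test. Within 500 kb of the *Ripk3* start site the tested genes on the side of higher coordinates were mostly lower. Limma called 6 of those 8 lower, with a median log2 fold change of -1.08. The shares called lower were 24.3% on chromosome 14 and 8.96% over all tested genes. Of the 6, *Nynrin*, *Cma1*, *Mcpt1* and *Gzmc* were tested only because WT libraries reached 1 FPKM, so a low MSTN-KO level was built into their being counted. These 6 included *Nynrin*, at 1.65 and 0.211 FPKM, and granzyme and mast cell protease genes such as *Gzmd*, at 94.9 and 2.01 FPKM (WT and MSTN-KO means). *Sdr39u1*, 109.9 kb away on that side, was at 14.7 and 15.2 FPKM (limma adjusted p = 0.916). On the side of lower coordinates 0 of 17 tested genes were called in either direction by limma, with a median of -0.17.

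**Figure D5:**
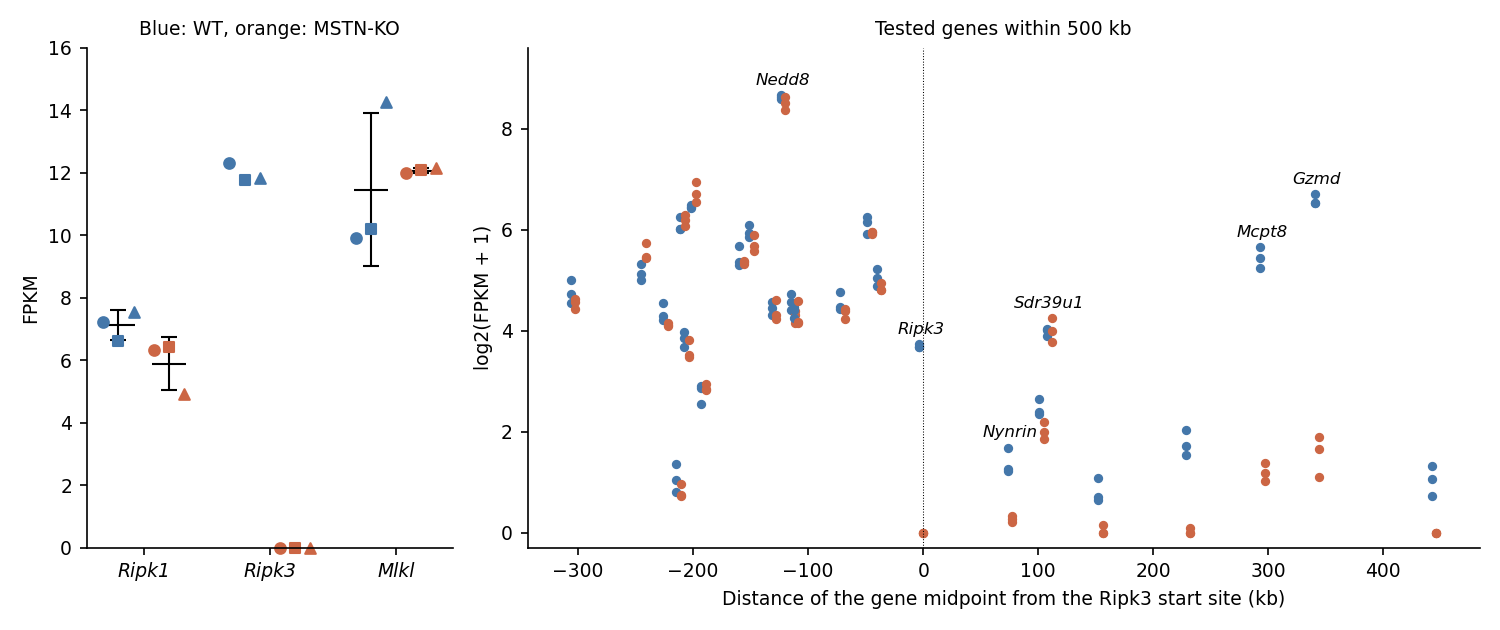
Left, level in FPKM of *Ripk1*, *Ripk3* and *Mlkl* in the WT (blue) and MSTN-KO (orange) libraries, with mean ± SD (n = 3) except for *Ripk3*; right, log2(FPKM + 1) of each tested gene within 500 kb of the *Ripk3* start site by distance in kb, WT points drawn slightly left of MSTN-KO points. To the left of *Ripk3* no gene was called, and to its right 6 of 8 genes were called lower, with *Sdr39u1* the one whose points overlap.

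The state of the cultures differed between the groups too. All 8 tested markers of differentiating muscle fell in MSTN-KO cells (median log2 fold change -2.69), their summed level running from 216 to 774 FPKM in WT, lowest in WT replicate 3, and from 31.9 to 57.7 FPKM in MSTN-KO libraries. *Myh3*, *Ckm* and *Casq2*, 3 of the 8, were tested only through the WT libraries. Of 5 myoblast markers 4 fell: *Chrna1* from 349.7 to 156.6 FPKM, *Des* from 710.4 to 363.4, *Itga7* from 296.2 to 201.5 and *Myod1* from 145.0 to 96.1. *Myf5* did not pass (log2 fold change 0.08, limma adjusted p = 0.784). These myoblast markers were thus present in both groups, most of them lower in MSTN-KO cells. Over all tested genes 8.96% were called lower and 8.78% higher. The 4 endothelial markers were at means of at most 0.0349 FPKM, and the only leukocyte marker analysed, *Cd68*, at 1.27 and 1.44 FPKM. Of 3 tested fibroblast markers 1 was higher and 1 lower, and of the epithelial markers *Krt14* was at 43.5 and 41.8 FPKM while *Cdh1* and *Krt5* stayed under 1 FPKM. The part of the culture state in the results above was not tested, and in bulk RNA fewer cells with a transcript and less transcript per cell cannot be told apart.

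The 5 genes whose log2(FPKM + 1) ran most like that of *Cflar* over the 6 libraries, among 10327 genes with a mean of at least 1 FPKM, were *Daam1* (Pearson r = 0.997), *Zfp397* (0.997), *Tpp2* (0.997), *Psmc6* (0.995) and *C1galt1* (0.994). These are correlations over 6 points that share the 2 groups and the low MSTN-KO replicate 3, and are given as a description. All 5 had a mean below WT in MSTN-KO cells, which follows from the choice by likeness to *Cflar*. The means went from 11.1 to 7.88 FPKM for *Daam1* and from 65.2 to 43.3 FPKM for *Psmc6*.

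The deposited FPKM summed to between 723705 and 764524 per WT library and between 856314 and 999579 per MSTN-KO library. The number of reads is unknown from FPKM, and the smallest values put the depth of the libraries between 0.861 and 1.09 times that of WT replicate 1. Spearman correlations over genes were 0.981 to 0.989 within groups and 0.955 to 0.970 between them.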

How the data were processed

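The files hold 1 value per gene and library, in FPKM, which the authors computed and deposited for the 3 WT and 3 MSTN-KO libraries. The deposited processing notes name Bowtie 0.12.2 and the mm8 build without a role. The program and annotation behind the FPKM are not given in the sources used here. The files hold no coordinates, and positions are those of GENCODE M21 (GRCm38), a build other than mm8, used through gene identifiers only. Of 14548 identifiers 14454 had a symbol.

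Genes that reached 1 FPKM in any library were tested on log2(FPKM + 1) with limma 3.58.1 in R 4.3.3 (empirical Bayes with a trend, Benjamini-Hochberg adjustment over all 10837 genes, 2-sided), after the script was tested on simulated data. In the simulated data 13% of 100 genes changed by 0.5 on the log2 scale were called, and 77% of 100 changed by 1. Only these genes, none of them at low levels, were changed among the 10837, with independent normal noise and no shift by chromosome or length. Many more genes were called in the real data, so these shares are not the sensitivity of the calls reported. Group was the only term. Replicates come from the labels, which do not say that they are separate cultures, so p-values measure only the spread between these libraries. A permutation test of 3 against 3 cannot go below 0.1 and was not used. Depth is unknown, and relative depth was read from the ratios of values under 0.1 FPKM.

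The 8 genes, the pathway lists and the markers were chosen with earlier results of these data known. Named were the 8 genes, from each pathway list the called genes (at most the 5 largest changes) and the gene of the highest mean, and the 5 genes most like the member of largest change. *Zbp1*, *Nynrin*, *Cma1*, *Mcpt1*, *Gzmc*, *Gzmd* and *Sdr39u1* were named outside this rule, after their values were seen. One gene under this rule is not reported here.

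Alternatives were pseudocounts of 0.1 and 0.5, no filter or a mean of at least 1 FPKM, no trend, quantile normalization, scaling to the 75th percentile or to a common sum, a smooth of length and GC content (mgcv 1.9.3), centring by chromosome, a block of replicate numbers, alone or beside that smooth, and each library left out. Promoters came from RefSeq.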

Additional observations from a re-analysis of the deposited data

How the results depend on the processing

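With 3 libraries per group and 1 knockout line, calls near the threshold moved with single choices, and the cause was not tested. Of 18 alternatives *Tnfrsf10b* kept its call in 8 and *Cflar* in 7, both below 0 in all 18. *Tnfrsf10b* was uncalled at -0.43 with no filter (limma adjusted p = 0.0612) or no trend (0.0513), and at -0.14 with chromosome centring. *Cflar* was uncalled at -0.54 with no filter (limma adjusted p = 0.101), -0.43 with quantile normalization, -0.58 with 75th percentile scaling and -0.29 with chromosome centring. *Casp8* was called at -0.57 with sum scaling, which moved the median of all genes by -0.26. Signs turned for *Fadd* with quantile normalization (0.0699), *Ripk1* with chromosome centring (0.0919), *Cycs* with quantile normalization (-0.0238) and sum scaling (-0.12), *Mlkl* with sum scaling (-0.18) and chromosome centring (-0.0438) and *Acin1* with sum scaling (-0.18).

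The pathway genes called higher, 8, were 5 with no filter and 3 with sum scaling. Those called lower, 3, were 5 with quantile normalization, 6 with 75th percentile scaling, 10 with sum scaling, 7 with the length and GC correction and 5 with chromosome centring. Over all genes, the 952 higher calls became 720 with no filter, where 14548 genes were tested, and 350 with sum scaling. The 971 lower calls became 941 with quantile normalization, 1092 with 75th percentile scaling and 2367 with sum scaling. They became 1299 with the length and GC correction and 776 with chromosome centring. The genes meeting the criteria of the study became 254 higher and 500 lower with a pseudocount of 0.1, and 510 lower with sum scaling.

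Leaving out 1 library gave 423 to 1184 genes called higher and 606 to 1251 lower, 3 to 9 pathway genes higher and 3 to 5 lower. The log2 fold changes ranged from -0.48 to -0.35 for *Tnfrsf10b*, 0.19 to 0.42 for *Fas*, 0.30 to 0.45 for *Tnfrsf1a*, -0.11 to 0.05 for *Fadd*, -0.30 to -0.14 for *Ripk1*, -0.45 to -0.22 for *Casp8*, -0.38 to 0.02 for *Casp9* and -0.69 to -0.39 for *Cflar*. *Fadd* (0.0450) and *Casp9* (0.0191) turned sign without WT replicate 1, as did *Cycs* and *Mlkl*, whose values ran from -0.0524 to 0.327 and from -0.000286 to 0.242 over the left-out libraries.

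The libraries share only replicate numbers: deviations of same-numbered libraries correlated at -0.0153, -0.128 and -0.142. With the replicate block *Tnfrsf10b* (-0.43, limma adjusted p = 0.0767) and *Cflar* (-0.54, limma adjusted p = 0.0515) were uncalled, as were *Tnfrsf1b* (limma adjusted p = 0.0548) and *Tradd* (limma adjusted p = 0.0570), so that 6 pathway genes were called higher. Over all tested genes 939 were called higher with that block. With the replicate block and the length and GC correction *Cflar* was at -0.39, uncalled (limma adjusted p = 0.0814). There 7 pathway genes and 1123 of all tested genes were called lower.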
